A study of Mus musculus with 4 samples.

Results

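The genes described here move zinc and copper across membranes or bind these metals inside the cell. They were taken from a list of 34 gene symbols, and all 34 were measured among the 19938 genes that had a probe set with a single symbol. By role they are 10 zinc exporters of the Slc30 family, 14 zinc importers of the Slc39 family, the 4 metallothioneins with their regulator Mtf1, and 5 genes of copper transport. Each gene was represented by 1 probe set, the brightest over all 4 arrays.

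Expression was compared between 2 kinds of proliferating mouse erythroid cells on Affymetrix Mouse Gene 1.0 ST arrays, with 2 arrays (A and B) of duplicate cultures in each group. MEL cells, a murine erythroleukemia line (clone DS19), carried a stable Gata-1 transgene fused to ER, the ligand-binding part of the estrogen receptor, and were kept in DMEM with fetal bovine serum and puromycin. ES-EP are erythroid progenitors obtained from embryonic stem cells, expanded in StemPro34 with erythropoietin, human IGF-1, dexamethasone, murine SCF and β-mercaptoethanol. Leukemic state, transgene and medium differed together and cannot be told apart. Both groups are RNA of whole cultures, so fewer expressing cells and less RNA per cell cannot be told apart either.

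Zinc is held at a low free concentration in the cytosol. Slc39 (ZIP) proteins bring zinc into the cytosol from outside or from organelles, Slc30 (ZnT) proteins move it out, and metallothioneins are small cysteine-rich proteins that bind zinc and copper. The transcription factor Mtf1 senses free zinc and switches on metallothionein genes and the exporter Slc30a1 by way of metal response elements. Metallothionein genes also respond to glucocorticoids. Copper enters by Slc31a1, is handed on by chaperones such as Atox1, and leaves through the pumps Atp7a and Atp7b. In erythroid cells, zinc is needed by carbonic anhydrase and by the heme enzyme Alad, and Slc39a8 and Slc30a1 are known as the importer and exporter that change during red cell maturation.

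Values are log2 signals, on which a difference of 1 is 2-fold, and differences are MEL minus ES-EP. The 95th percentile of 1027 olfactory receptor genes serves here as a mark of background, so that 95% of them lay at or below it. It was 5.19 in MEL against 5.56 in ES-EP. Of the 34 genes, 28 lay above it in both cell types, Slc39a4 in MEL alone, Slc30a4, Mt4 and Slc31a2 in ES-EP alone, and Slc30a8 and Slc39a12 in neither. Array medians were 5.67 to 5.68 for MEL and 5.81 to 5.84 for ES-EP, and replicates correlated at r = 0.998 in both groups (across genes, which are not independent). All 9 measured erythroid markers lay above background in both cell types, but 7 of the 9 were called lower in MEL and 1 higher (median -0.78). Of all genes, 43.2% were called lower and 20.5% higher. The band 3 gene Slc4a1 differed by -5.47 ± 0.09, the heme synthesis gene Alas2 by -3.12 ± 0.08 and Rhd by -1.62 ± 0.09. The marker that was higher in MEL was Gata1 (12.36 ± 0.03 against 11.22 ± 0.10, SD, n = 2), the gene of the transgene in these cells, and whether its probes read the transgene was not tested.

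Among the 34 genes, 9 were higher and 14 lower in MEL at an adjusted p under 0.05 (limma, Benjamini-Hochberg over all genes). Such calls were common on these arrays, at 20.5% of all genes higher and 43.2% lower, so the 23 called genes (67.6%) were close to the background of 63.8%. The direction of calls depended on the scaling. With median centring 28.9% of all genes were called higher and 28.3% lower, with cyclic loess 28.5% and 27.4%, and with quantile normalization 26.8% and 30.0%, and the 34 genes then gave 11 higher and 11 lower, 11 and 13, and 10 and 14. The median difference of the 34 genes, -0.15, was also that of all genes, -0.15. At 2-fold or more, 1 gene was higher (Slc39a14) and 7 were lower (Slc30a2, Slc30a4, Slc39a8, Mt3, Mt4, Slc31a2 and Atp7b), where all genes had 5.72% and 4.27%. The arrays of the 2 groups did not overlap for 29 of the 34 genes (11 higher and 18 lower in MEL), against 81.8% of all genes (27.1% higher and 54.7% lower). Of the 28 genes above background in both cell types 8 were called higher and 10 lower, where 26.5% and 41.3% of all such genes were (67.8% together), so these counts too were near their background. Directions were spread unevenly over the roles. All 5 genes of the metallothionein group were called lower in MEL, while 7 of 14 zinc importers were called higher and 2 lower. Of the copper genes 3 of 5 (60%) were called lower and none higher. That is a small count against the 43.2% of all genes called lower, and the share called was near the 63.8% of all genes.

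**Figure D1:**
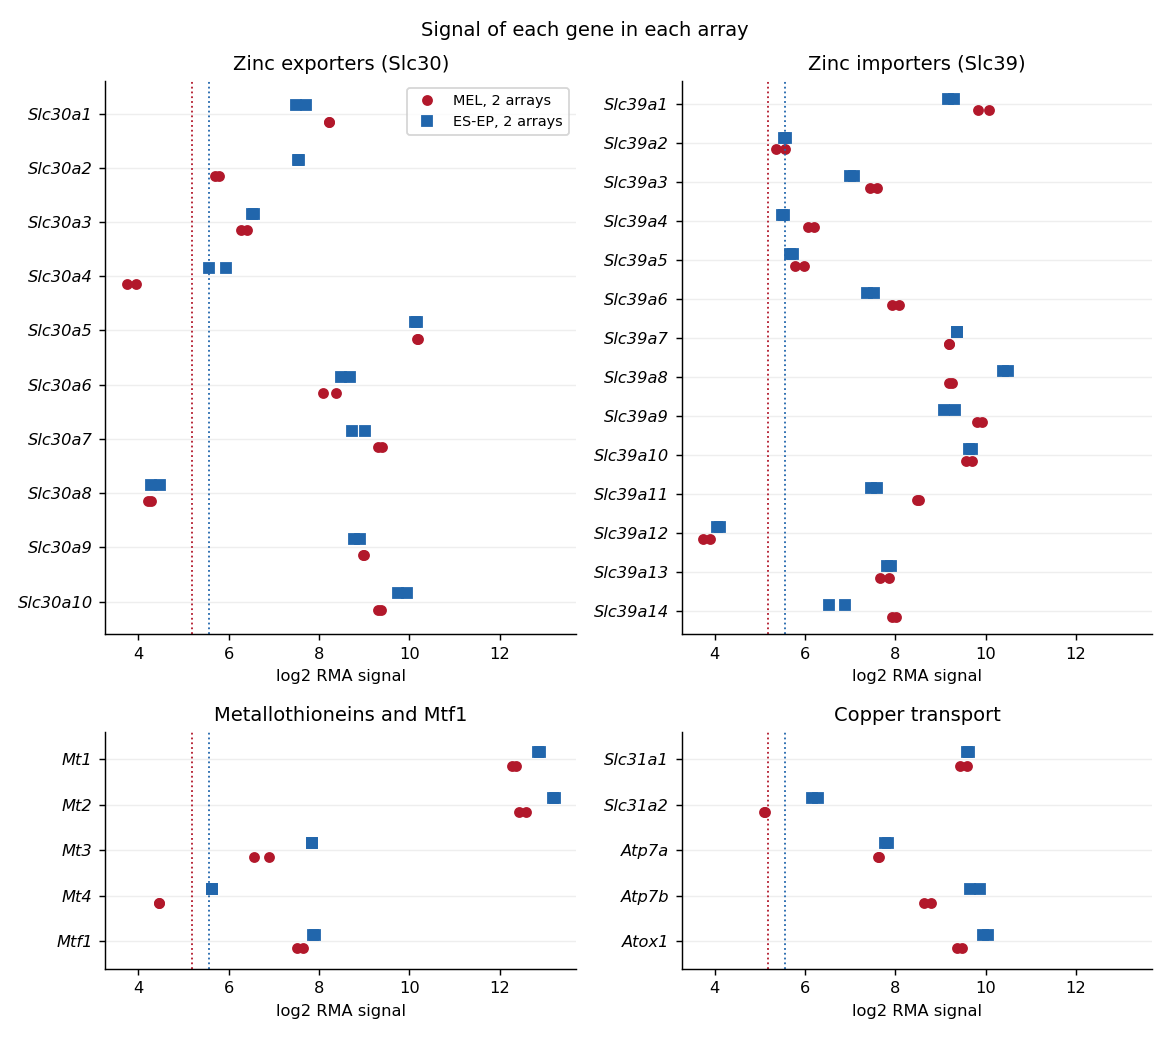
Log2 signal (x) of each gene (y) in each array, with the 2 MEL arrays as red circles and the 2 ES-EP arrays as blue squares, in 4 panels by role. Dotted lines mark the background level, 5.19 in MEL (red) and 5.56 in ES-EP (blue). In the metallothionein panel every red circle lies left of the blue squares of its gene.

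**Figure D2:**
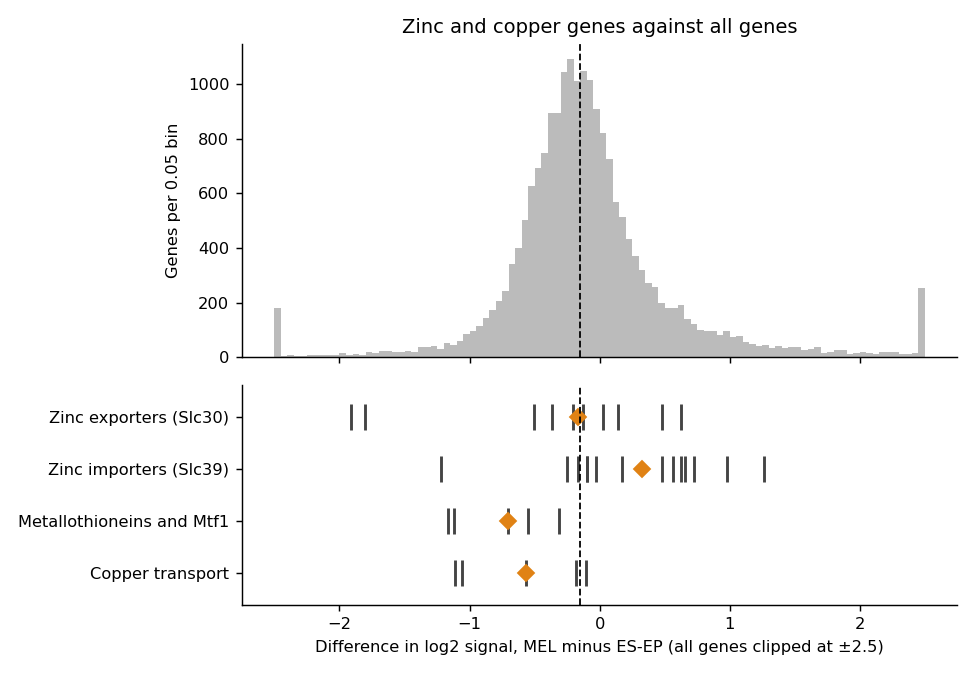
Top, number of genes (y) by difference in log2 signal, MEL minus ES-EP (x), for all 19938 genes, with differences beyond the axis ends placed in the end bins. Bottom, each tick is 1 gene of the role named at the left and each diamond the median of the role. The dashed line is the median of all genes, -0.15, and the medians of the roles were -0.17 for exporters, 0.33 for importers, -0.70 for the metallothionein group and -0.57 for copper transport.

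The metallothioneins and their regulator were all lower in MEL. Mt1 (probe set 10574027) and Mt2 (10574023) are the forms made by most tissues, and both were bright in both cell types. Mt1 read 12.37 and 12.27 in the MEL arrays against 12.89 and 12.86 in the ES-EP arrays. Mt2 read 12.58 and 12.43 in MEL against 13.19 and 13.22 in ES-EP. For both genes each MEL array stood below each ES-EP array, with differences between single arrays from -0.62 to -0.49 for Mt1 and from -0.80 to -0.61 for Mt2. Mt1 was thus 1.47-fold lower in MEL (difference -0.55 ± 0.08, SE, adjusted p = 0.000196) and Mt2 1.63-fold lower (-0.70 ± 0.09, adjusted p = 4.96e-05). The highest signals of any probe set were 14.10 to 14.44, and whether signals as bright as those of Mt1 and Mt2 were compressed was not tested. Nor was it tested whether the probes of these similar transcripts read each other.

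Mt3 (10574018) and Mt4 (10574013) are known from brain and from stratified epithelia. Mt3 stood at 6.57 and 6.89 in MEL against 7.85 in both ES-EP arrays, a 2.18-fold difference (-1.12 ± 0.11, adjusted p = 6.70e-06). Mt4 stood at 4.45 and 4.47 in MEL against 5.63 and 5.62 in ES-EP (-1.17 ± 0.08, adjusted p = 4.52e-07). The groups did not overlap for either gene. The Mt4 signals were below background in MEL and barely above it in ES-EP (5.63 against a level of 5.56), so the size of its fold rests on background. Mtf1 (10507961), the metal-sensing factor, read 7.65 and 7.52 in MEL against 7.87 and 7.92 in ES-EP. Its difference was the smallest of the group (-0.31 ± 0.08, adjusted p = 0.00801), and its call ended with each array centred on its median (-0.16, adjusted p = 0.105) and without MEL replicate B (-0.25, adjusted p = 0.0812), in a range of adjusted p from 0.00387 to 0.105 over the alternatives with this adjustment and no block.

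Because the metallothioneins are the best known targets of Mtf1 and were lower together, the 250 bases before their RefSeq starts (GRCm38.p6, each 5′ to 3′ on the strand of the gene) are shown with those of Slc30a1, the exporter gene under the same control. Capitals mark the core of the metal response element, searched as TGCACNC and TGCGCNC on both strands, where N is any base and a match on the other strand appears as its reverse complement.
Mt1 (chr8:94178839-94179088, + strand): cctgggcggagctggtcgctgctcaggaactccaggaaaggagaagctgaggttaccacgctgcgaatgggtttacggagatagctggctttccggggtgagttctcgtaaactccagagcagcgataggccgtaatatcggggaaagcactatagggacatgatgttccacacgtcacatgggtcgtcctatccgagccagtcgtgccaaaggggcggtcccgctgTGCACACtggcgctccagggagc
Mt2 (chr8:94172368-94172617, + strand): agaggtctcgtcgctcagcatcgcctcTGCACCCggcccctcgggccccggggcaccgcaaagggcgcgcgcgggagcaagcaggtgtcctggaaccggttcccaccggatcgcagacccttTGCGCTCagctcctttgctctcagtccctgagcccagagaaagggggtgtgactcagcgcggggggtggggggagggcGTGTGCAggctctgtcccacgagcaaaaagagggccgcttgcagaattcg
Mt3 (chr8:94152357-94152606, + strand): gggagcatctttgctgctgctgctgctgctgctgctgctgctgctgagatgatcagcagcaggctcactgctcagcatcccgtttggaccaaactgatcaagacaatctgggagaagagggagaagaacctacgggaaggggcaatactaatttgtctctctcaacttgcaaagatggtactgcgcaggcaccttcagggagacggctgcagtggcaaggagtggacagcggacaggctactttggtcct
Mt4 (chr8:94136954-94137203, + strand): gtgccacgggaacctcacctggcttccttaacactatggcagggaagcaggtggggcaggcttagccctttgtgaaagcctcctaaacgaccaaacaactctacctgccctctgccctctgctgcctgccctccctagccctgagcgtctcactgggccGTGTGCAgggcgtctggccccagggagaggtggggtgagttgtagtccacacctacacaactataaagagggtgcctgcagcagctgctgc
Slc30a1 (chr1:191906531-191906780, + strand): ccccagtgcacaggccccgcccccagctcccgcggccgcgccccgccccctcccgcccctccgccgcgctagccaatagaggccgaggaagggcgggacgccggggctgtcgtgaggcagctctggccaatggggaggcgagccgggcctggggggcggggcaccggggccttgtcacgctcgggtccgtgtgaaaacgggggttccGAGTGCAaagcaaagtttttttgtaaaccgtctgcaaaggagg
The Mt2 window held 3 matches, those of Mt1, Mt4 and Slc30a1 held 1 each, and that of Mt3 held 0. The match nearest to a RefSeq start was that of Mt1, 17 to 23 bases before it. Whether the RefSeq starts are those used in these cells was not tested. The counts and distances hold for the annotated starts only, and elements after them are missed. At least 1 match was present in 21.4% of the 32851 windows in the table and at least 3 in 1.26%. Windows were found for 30 of the 34 genes, and 16 of these had at least 1 match in a window, among them Slc30a10 with 3. Some genes had more than 1 window, and counted by window 17 of 35 (48.6%) had at least 1 match. Genes with windows but no match included Mtf1, Slc31a1, Atox1 and Slc39a10. These windows end at the RefSeq start, and elements outside them were not searched. A match is a string of letters here, and binding of Mtf1 was not measured.

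The 4 metallothionein genes lie next to each other on chromosome 8. Of the measured genes beside them, Bbs2, a gene of primary cilia on the Mt4 side, was lower in MEL by more than any of the 4 (-1.45 ± 0.10, adjusted p = 8.35e-07), and Nup93, a nuclear pore gene on the Mt1 side, was lower too (-0.63 ± 0.08, adjusted p = 6.32e-05). Farther out, Ogfod1 was higher in MEL (0.36 ± 0.08, adjusted p = 0.00240), Nudt21 was slightly lower (-0.24 ± 0.09, adjusted p = 0.0340), and Slc12a3 and Herpud1 did not pass the test. The run of lower signals covered 6 neighboring measured genes, 4 of them the metallothioneins themselves. It is to be read against the 43.2% of all genes that were called lower. Whether the 6 genes share a cause was not tested.

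**Figure D3:**
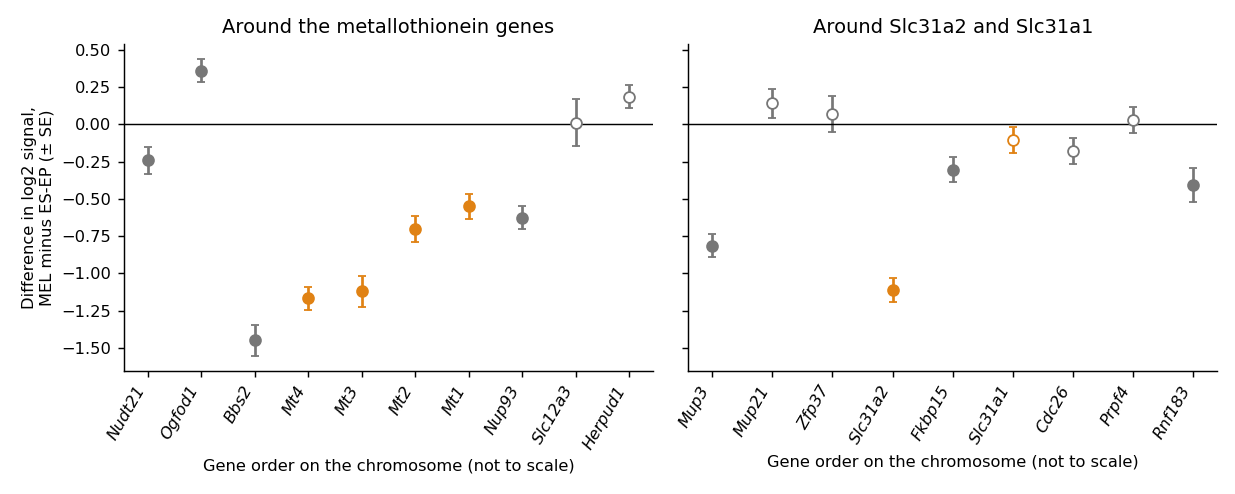
Difference in log2 signal, MEL minus ES-EP (y, ± SE), of genes in their order along the chromosome (x, not to scale), around the metallothioneins on the left and around Slc31a2 and Slc31a1 on the right. Orange points are the genes described here and gray points their measured neighbors, filled where the limma test was passed. From Bbs2 to Nup93 all 6 points lie below 0, from -0.55 to -1.45.

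Zinc importers were the role with most genes higher in MEL. Of 14 genes, 7 were called higher (20.5% of all genes as deposited, 26.8% to 28.9% after rescaling), 2 lower (43.2% of all genes) and 5 were not called. The widest difference was that of Slc39a14 (10421309), which carries zinc, manganese and iron not bound to transferrin. It read 8.01 and 7.94 in MEL against 6.54 and 6.88 in ES-EP, so that the ES-EP cultures differed from each other by more than the MEL cultures did. It was 2.40-fold higher in MEL (1.26 ± 0.11, adjusted p = 3.68e-06), and each MEL array stood at least 1.06 above each ES-EP array.

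Slc39a8 (10496324), the closest relative of Slc39a14, carries zinc and manganese and went the opposite way. It read 9.20 and 9.25 in MEL against 10.39 and 10.50 in ES-EP, with no overlap, and was 2.33-fold lower in MEL (-1.22 ± 0.08, adjusted p = 5.16e-07). It was the only importer above background that was called lower. The call of Slc39a12, known from brain, rested on signals below background in both groups (3.83 ± 0.11 in MEL against 4.08 ± 0.04 in ES-EP, SD, n = 2). It ended after each rescaling, in the adjustment over all probe sets (adjusted p = 0.0749), without MEL replicate B (0.189) and without ES-EP replicate B (0.100), in a range of adjusted p from 0.0251 to 0.486 over the alternatives with this adjustment and no block.

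The other 6 importers that were called higher in MEL differed by less than 2-fold. Slc39a11 (10392701) came closest, at 8.53 and 8.49 in MEL against 7.48 and 7.59 in ES-EP (0.98 ± 0.08, adjusted p = 2.92e-06). Slc39a1, a zinc importer of the cell surface in many tissues, was 1.66-fold higher by its brighter probe set (10493709, adjusted p = 0.000111). A second, dimmer probe set of this gene (10470948) gave a similar difference (0.83 ± 0.09, adjusted p = 0.00265 over all probe sets). Slc39a9, a protein of the Golgi, was 1.57-fold higher (adjusted p = 0.000224), Slc39a6 1.48-fold (adjusted p = 0.000375) and Slc39a3 differed by 0.48 ± 0.09 (adjusted p = 0.000765). Slc39a4, the intestinal importer that is mutated in the zinc deficiency acrodermatitis enteropathica, was 1.54-fold higher (adjusted p = 0.000109), but its signal in ES-EP (5.51 ± 0.04, SD, n = 2) was below background.

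Slc39a10 (10354389), the partner of Slc39a6 in a complex at the cell surface, read 9.71 and 9.56 in MEL against 9.64 and 9.69 in ES-EP. Its groups overlapped and its difference was -0.03 ± 0.09 (adjusted p = 0.789), with a sign that turned after each of 3 rescalings of the arrays. Slc39a7, which releases zinc from the endoplasmic reticulum, differed by -0.17 ± 0.08 (adjusted p = 0.0874) and Slc39a13, an importer of connective tissue, by -0.09 ± 0.09 (adjusted p = 0.394). Slc39a2 and Slc39a5 were near background, at differences of -0.10 and 0.17. Neither was called, although Slc39a5 was called higher in MEL after each rescaling (0.32 to 0.39).

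**Figure D4:**
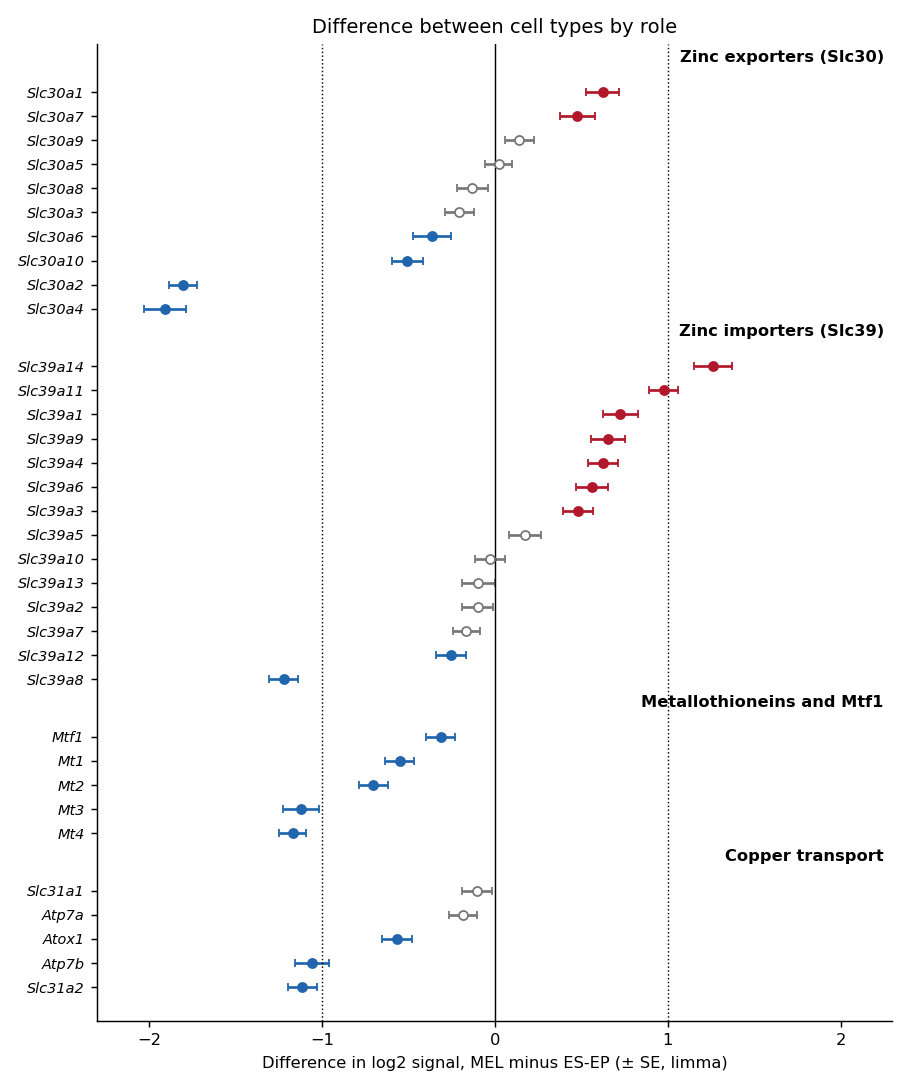
Difference in log2 signal, MEL minus ES-EP (x, ± SE), of each gene (y), ordered within its role. Red points passed the limma test and were higher in MEL, blue points passed it and were lower, and open gray points did not pass. Dotted lines mark 2-fold. Of the importers 7 are red, and in the metallothionein group all 5 are blue.

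Of the 10 zinc exporters 2 were called higher and 4 lower in MEL, which is near the 20.5% and 43.2% of all genes. Slc30a2 (10508961), which loads zinc into vesicles and lysosomes, read 5.70 and 5.79 in MEL against 7.54 and 7.56 in ES-EP. It was 3.49-fold lower in MEL (-1.80 ± 0.08, adjusted p = 1.62e-08), above background in both groups. Slc30a4 (10487021), another vesicular exporter, read 3.95 and 3.74 in MEL against 5.56 and 5.94 in ES-EP (-1.91 ± 0.12, adjusted p = 3.30e-07). The groups of both genes were far apart, but Slc30a4 was below background in MEL and close to it in ES-EP, so its fold is not exact. Of all genes, 1.51% had a difference as low as that of Slc30a2.

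The exporter of the plasma membrane and target of Mtf1, Slc30a1 (10352777), differed from the metallothioneins in direction. It read 8.23 and 8.22 in MEL against 7.48 and 7.72 in ES-EP, without overlap, and was 1.54-fold higher in MEL (0.62 ± 0.09, adjusted p = 0.000225). Slc30a7, which supplies zinc to the secretory pathway, was 1.39-fold higher in MEL (adjusted p = 0.00211). Slc30a5 and Slc30a6, which work there as a pair, were at 0.02 ± 0.08 (adjusted p = 0.811) and -0.37 ± 0.11 (adjusted p = 0.0140). The call of Slc30a6 ended with median centring (adjusted p = 0.120), without MEL replicate A (0.162), without ES-EP replicate B (0.112) and in the adjustment over all probe sets (0.0805), in a range from 0.00559 to 0.162 over the alternatives with this test and no block.

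Slc30a10 (10352548), known mainly as a manganese exporter, was 1.42-fold lower in MEL (9.38 and 9.30 against 9.75 and 9.94, adjusted p = 0.000691). Slc30a9, a mitochondrial protein, differed by 0.14 ± 0.08 (adjusted p = 0.163). It was called higher in 2 of 13 alternatives, median centring (0.29, adjusted p = 0.0111) and cyclic loess (0.21, adjusted p = 0.0408). Slc30a3, the transporter of synaptic vesicles, differed by -0.21 ± 0.08 (adjusted p = 0.0517). It was called lower in 1 of 13 alternatives, the filter at the median signal (adjusted p = 0.0329). Slc30a8, the transporter of insulin granules, was below background in both groups (4.25 ± 0.05 and 4.38 ± 0.13, SD, n = 2). Over all 24 zinc transporters 9 were called higher (37.5%, against 20.5% of all genes) and 6 lower in MEL (25%, against 43.2%). Their median difference was -0.00, where that of all genes was -0.15.

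In copper transport, the uptake gene Slc31a1 had the smallest difference as deposited, but the order of the smallest differences depended on the scaling. With median centring the pump gene Atp7a was nearer to 0 (-0.033, against 0.045 for Slc31a1). Slc31a1 (10505276), the copper importer of the cell surface, read 9.43 and 9.59 in MEL against 9.64 and 9.60 in ES-EP. The groups touched at 9.59 and 9.60, and the difference did not pass the test (-0.10 ± 0.09, adjusted p = 0.316). The chaperone Atox1 (10386070) read 9.48 and 9.38 in MEL against 10.05 and 9.94 in ES-EP and was 1.48-fold lower in MEL (-0.57 ± 0.08, adjusted p = 0.000211).

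The pumps that Atox1 supplies differed unequally. Atp7b (10577449), the pump of liver that is defective in Wilson disease, read 8.78 and 8.64 in MEL against 9.66 and 9.88 in ES-EP, 2.08-fold lower in MEL (-1.06 ± 0.10, adjusted p = 5.48e-06). Atp7a (10601360), the pump defective in Menkes disease, read 7.61 and 7.64 in MEL against 7.77 and 7.85 in ES-EP. Its groups did not overlap, but its difference of -0.18 ± 0.08 missed the threshold (adjusted p = 0.0703). Atp7a was called lower in 2 of 13 alternatives, quantile normalization (-0.21, adjusted p = 0.0328) and the filter at the median signal (adjusted p = 0.0463). Slc31a2 (10505270), a copper protein of endosomes and lysosomes, read 5.12 and 5.10 in MEL against 6.28 and 6.17 in ES-EP (-1.11 ± 0.08, adjusted p = 1.05e-06), with a MEL signal just below background. Slc31a2 and Slc31a1 are close neighbors on chromosome 4, with Fkbp15 between them, which was lower in MEL by less than Slc31a2 was (-0.30 ± 0.08, adjusted p = 0.00788).

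Genes around these pathways were counted in 5 further lists, whose counts are to be read against the 20.5% of all genes called higher and 43.2% called lower. Of 9 measured genes known to respond to Mtf1, zinc or oxidative stress, 7 were lower and 1 higher in MEL (median -0.57). Selenoh and Selenow, both selenoproteins, were lower in MEL (-1.74 ± 0.12 and -1.23 ± 0.09), and Gclc, which makes the precursor of glutathione, was 1.95-fold lower, whereas Csrp1, a LIM domain protein, was 16.0-fold higher in MEL (10.02 ± 0.03 against 6.01 ± 0.04, SD, n = 2). Of 9 copper chaperones for enzymes and mitochondria, 3 were higher and 2 lower (median 0.02). Ccs, which delivers copper to Sod1, was 2.03-fold lower in MEL, and Coa6, an assembly factor of cytochrome c oxidase, 1.45-fold lower, while Glrx and Sco1 were 1.59-fold and 1.32-fold higher. Of 14 copper enzymes, 6 were lower and 0 higher, but 11 of the 14 lay below background in both cell types. Sod1, which holds both copper and zinc, was 1.52-fold lower in MEL. The other called genes with the largest differences, Pam (4.08 in MEL against 5.04 in ES-EP), Moxd1 (4.55 against 5.13) and Dbh (4.87 against 5.31), were below background in both.

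Metal reductases and other divalent metal carriers showed small differences, 1 higher and 4 lower of 9. The iron and zinc exporter Slc40a1 was 1.35-fold lower in MEL and the vesicular zinc protein Tmem163 1.42-fold lower, and the reductase Steap3 was 1.22-fold higher, while its relative Steap4 was below background in both (4.62 against 5.04). Of 12 zinc enzymes of blood cells, 2 were higher and 6 lower (median -0.26). The carbonic anhydrase Car1 was 2.63-fold higher in MEL, Alad was 3.16-fold lower, and the surface peptidase Anpep was 1.81-fold higher. Another carbonic anhydrase, Car4, was below background in both (4.53 against 5.19).

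After rescaling, all genes had a median difference of -0.03 (quantile normalization), -0.01 (median centring) or -0.00 (cyclic loess) in place of -0.15, so small negative differences have to be read against that shift. None of the 23 called genes changed sign in any of these 3. All 4 metallothioneins remained called lower in MEL (-0.40 to -1.13 over the 3), as did Slc39a8 and Atp7b, and Slc39a14, Slc39a11 and Slc30a1 remained called higher. Mt3, Mt4, Slc31a2 and Atp7b fell short of 2-fold after at least 1 of the 3 and Slc39a11 passed it after median centring and cyclic loess, and the counts are given with the other alternatives.

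**Figure D5:**
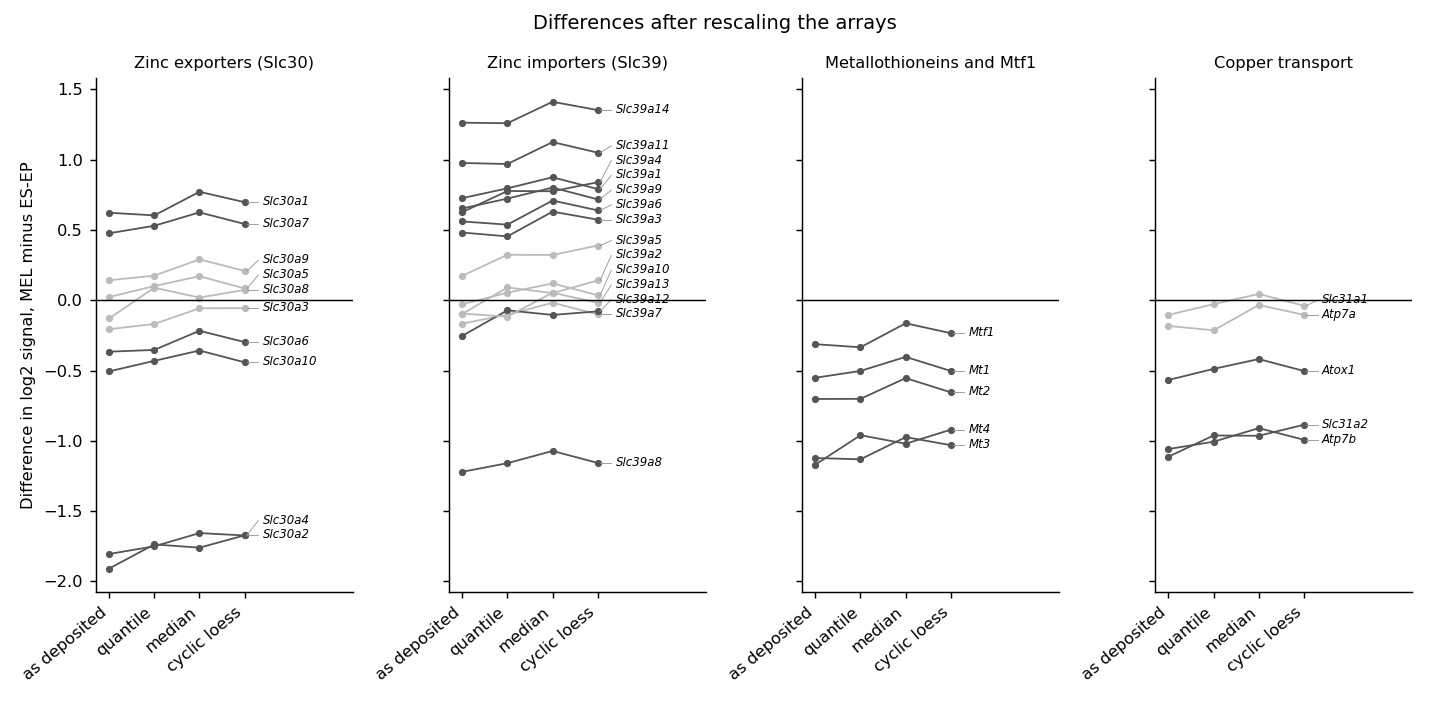
Difference in log2 signal, MEL minus ES-EP (y), of each gene as deposited and after 3 rescalings of the arrays (x), in 4 panels by role. Dark lines are genes that passed the limma test as deposited and pale lines those that did not. No dark line crosses 0.

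Markers of other cell types were counted too, to be read against the 20.5% of all genes called higher in MEL and 43.2% called lower. Megakaryocyte markers were higher in MEL in 5 of 6 cases (log2 of the summed signal 10.76 and 10.69 in MEL against 9.13 and 9.18 in ES-EP). Mast cell markers were lower in 6 of 8 and higher in 0 (12.17 and 12.21 against 12.95 and 12.90). Of the 8, 4 were below background in both. Ms4a2 stood at 3.95 ± 0.18 in MEL, below background, against 11.05 ± 0.13 in ES-EP (SD, n = 2). Its difference of -7.10 ± 0.10 (SE) was the lowest of all genes. Hdc differed by -1.97 ± 0.08, while Srgn, the brightest of the list in both cell types, was not called (-0.15 ± 0.08). Of 8 macrophage markers 1 was higher and 2 lower, of 8 embryonic stem cell markers 4 were lower and 0 higher, and of 8 fibroblast markers 2 were higher and 5 lower, with 5, 7 and 3 of these lists below background in both cell types. Called genes made up 37.5% of the macrophage list and 50% of the embryonic stem cell list, below the 63.8% of all genes. The part of differences in cell type in the signals of zinc and copper genes was not tested.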

How the data were processed

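RNA of 4 cultures was hybridized to 1 Affymetrix Mouse Gene 1.0 ST array each. The authors deposited log2 signals after RMA in GeneSpring GX, which subtracts background, equalizes array distributions and summarizes probes (35557 probe sets). The array medians still differed by group, which shifts small differences. Probe sets with a single symbol (21789, of which 21698 were matched by Entrez number to GRCm38.p6) gave 19938 genes, each read by its brightest probe set; 1621 with several symbols and 12147 unnamed ones were left out.

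Differences were tested with limma 3.58.1 in R 4.3.3 (lmFit and eBayes without a block, two-sided) and adjusted by Benjamini-Hochberg over all genes, with calls at 0.05. A 2-fold gene was called and differed by at least 1. Fold alone, with no test, passed as many of all genes, 1993 (10.0%). An exact permutation of 2 against 2 arrays cannot give a p below 0.333. ± is the SD of 2 cultures or, for differences, the SE. The p-values rest on duplicate cultures of each line and on no wider variation, and the number of arrays limits the precision.

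The 34 genes, their roles, the lists, the neighbors and the motif were chosen with earlier results of these data known. All 34 genes were named, with array values for 2-fold genes and 8 chosen by role; Slc39a11 and Slc30a10 were added after their values were seen. Of each list up to 4 called genes with the largest differences were named. Alternatives were 3 rescalings, a filter at the median signal, the mean of probe sets, adjustment over all probe sets, Holm's adjustment, eBayes with trend and robust, a replicate block and leaving out each array. The fit was tested on simulated data. Promoters are from RefSeq. Figures were drawn with matplotlib 3.10.9.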

Additional observations from a re-analysis of the deposited data

How the results depend on the processing

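Of the 23 called genes, none changed sign under any of 13 alternatives. With median centring and with cyclic loess, 2 genes were at least 2-fold higher and 4 at least 2-fold lower in MEL, in place of 1 and 7. Quantile normalization gave 1 and 5, and 4 were lower among genes at or above the median signal, where only 26 of the 34 were left. Under Holm's adjustment 2 genes were called higher and 7 lower. Leaving out 1 array gave 1 to 2 genes at least 2-fold higher, 6 to 7 at least 2-fold lower, 9 to 9 called higher and 12 to 14 called lower. The 2 were reached without ES-EP replicate B, where Slc39a11 passed 2-fold. With a replicate block, A against A and B against B, 9 genes were called higher and 14 lower as without it. The deviations of same-letter arrays did not go together (r = -0.04 across genes, which are not independent). With 1 pair of arrays per cell type this cannot show whether arrays of the same letter were handled together, and the sample titles do not say.

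Uncalled genes near 0 changed sign. Slc30a8, Slc39a2 and Slc39a10 did so with quantile normalization (0.090, 0.092 and 0.054), median centring (0.020, 0.051 and 0.12) and cyclic loess (0.074, 0.14 and 0.036). Slc39a13 and Slc31a1 did so with median centring (0.054 and 0.045). Leaving out 1 array, Slc39a10 ranged from -0.10 to 0.045 and Slc39a13 from -0.20 to 0.0069, both above 0 without MEL replicate B. The causes of these changes were not tested. With 2 arrays per group, a difference that missed the threshold is not shown to be absent.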
